A study of Mus musculus with 6 samples.

Results

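The genes for 10 receptors of the IL-1, TNF and IL-6 cytokine families were followed in RNA-seq of cultures grown from mouse dorsal root ganglia, where the cell bodies of sensory neurons lie among satellite glia. The members were Il1r1, Il1rap, Il1rl1, Tnfrsf1a, Tnfrsf1b, Il6ra, Il6st, Lifr, Osmr and Cntfr, taken by symbol, which makes 10 of the 45703 genes in the deposited count table. The study held 1 group of 6 biological replicates: wild type C57BL/6 mice, labelled adult and aged 4 to 6 weeks, whose ganglia were dissociated with Liberase TH and Liberase TM and kept for 7 days on poly-L-lysine. All cultures received DMEM/F12 with 10% fetal calf serum, penicillin/streptomycin and 10 ng/ml of EGF and FGF, and each RNA sample came from 2 dishes. No fresh ganglion, other day or other medium was analysed here, so the comparisons below are between genes within a culture and between cultures.

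These receptors carry inflammatory and injury signals into neurons, glia and connective tissue cells. Receptors of the IL-6 family share the signal transducer Il6st. Il6ra and Cntfr bind their ligands but have no signalling tail, and Lifr and Osmr pair with Il6st and signal through JAK kinases to STAT3. Receptors of the IL-1 family pair a ligand-binding chain, Il1r1 for IL-1 or Il1rl1 for IL-33, with the accessory chain Il1rap and signal through Myd88 and IRAK kinases. TNF binds Tnfrsf1a, which carries a death domain, and Tnfrsf1b, which lacks one. In nerve, ligands of the IL-6 family such as CNTF and LIF are known from their actions on injured neurons and on glia.

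The libraries held 20070639 to 22968642 counts, and the members together took 0.166% to 0.211% of them. Markers showed a mixture. Glial lineage genes such as Sox10, Erbb3 and Cdh19 were above a CPM (counts scaled to 1000000 per library) of 1 in every culture for 6 of 6 genes, with a summed level of 4162 to 6033 CPM, and neuron genes for 8 of 8, with 887 to 1850.2 CPM. Fibroblast genes reached that level for 6 of 7, with a sum of 3339 CPM in replicate 1 and 13977 CPM in replicate 5. Macrophage genes did so for 5 of 8 (14.6 to 139.7 CPM), mural cell genes for 5 of 6 (56.9 to 1067 CPM) and endothelial genes for 2 of 6 (8.14 to 116 CPM). None of 6 mast cell and 6 lymphocyte genes did; their sums stayed at or below 0.573 and 0.473 CPM, and Fcer1a and Ms4a1 had 0 counts in all 6 libraries. In such bulk RNA, fewer cells of a type and less RNA per cell cannot be told apart, and each receptor's level is an average over all cells of the dish.

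Every member was counted. A CPM of at least 1 in all 6 cultures was reached by 9 of the 10 members, against 55.8% of the 21843 protein-coding genes. The exception was Il1rl1, which had 16 counts in replicate 1. Levels between genes are compared below as CPM per kilobase (kb) of the combined exon length given in the table.

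Among the IL-6 family receptors, Il6st (GeneID 16195, chromosome 13, 112464070 to 112506860, GRCm38.p6, plus strand) was the most abundant member. It was counted at 854, 865.1, 1043, 979.9, 834.8 and 1024 CPM in replicates 1 to 6. These values lay within 1.25-fold of one another, with a mean of 933 ± 92.8 CPM (SD, n = 6), or 171 ± 17.0 CPM per kb. Il6st alone supplied 49.8% of the summed CPM of the 10 members.

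Osmr (GeneID 18414, chromosome 15, 6813568 to 6874968, minus strand), the oncostatin M receptor chain, was counted at 95.3, 115, 123.5, 138, 164 and 125 CPM. The lowest value was that of replicate 1 and the highest that of replicate 5, a ratio of 1.72. Its mean was 127 ± 22.96 CPM, or 21.5 ± 3.89 CPM per kb (SD, n = 6). Lifr (GeneID 16880, chromosome 15, 7090610 to 7197489, plus strand), the LIF receptor chain, lies on the same chromosome as Osmr. Its values were 99.5, 74.6, 132, 79.4, 79.4 and 102 CPM. Replicate 3 was the highest, replicates 2, 4 and 5 lay close together at the low end, and the mean was 94.5 ± 21.7 CPM, or 8.83 ± 2.02 CPM per kb (SD, n = 6).

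The ligand-binding chains without a signalling tail had fewer counts than Il6st, Osmr and Lifr, with no correction for length. Il6ra (GeneID 16194, chromosome 3, 89869324 to 89913196, minus strand), which binds IL-6, was counted at 51.6, 38.4, 28.6, 28.7, 27.8 and 24.7 CPM. Replicate 1 stood highest at 2.09 times the level of replicate 6, and the 4 cultures from replicate 3 to replicate 6 were close to one another. Its mean was 33.3 ± 10.1 CPM, or 9.86 ± 2.99 CPM per kb (SD, n = 6). Cntfr (GeneID 12804, chromosome 4, 41657498 to 41697091, minus strand), which binds CNTF, was counted at 23.6, 28.6, 26.2, 25.3, 15.8 and 23.7 CPM. Replicate 5 was the lowest, and the other 5 lay within a narrow range. The mean was 23.9 ± 4.38 CPM, or 1.37 ± 0.251 CPM per kb (SD, n = 6). Cntfr counts were fractional in all 6 libraries and those of Lifr in 2, and how the counting divided such reads is not given in the sources used here.

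In the IL-1 receptor family, the accessory chain was far more abundant than either ligand-binding chain. Il1rap (GeneID 16180, chromosome 16, 26581509 to 26730128, plus strand) was counted at 426, 452, 397, 417, 253 and 566 CPM. Replicate 5 was lowest and replicate 6 highest, with the other 4 between 397 and 452 CPM. The mean was 419 ± 101 CPM, or 37.1 ± 8.92 CPM per kb (SD, n = 6).

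Il1r1 (GeneID 16177, chromosome 1, 40222480 to 40316201, plus strand), the signalling receptor for IL-1, was counted at 10.1, 14.0, 19.7, 30.2, 46.1 and 23.2 CPM. Replicate 5 held 4.56 times the level of replicate 1, and the mean was 23.9 ± 13.0 CPM, or 3.56 ± 1.93 CPM per kb (SD, n = 6). Il1rl1 (GeneID 17082, chromosome 1, 40404864 to 40465418, plus strand), the IL-33 receptor, lies further along the same stretch of chromosome 1. It was counted at 0.697, 1.09, 3.14, 8.02, 6.74 and 2.68 CPM, from 16 counts in replicate 1 to 161 in replicate 4. The ratio of highest to lowest was 11.5, and the mean was 3.73 ± 3.00 CPM, or 0.499 ± 0.402 CPM per kb (SD, n = 6). The table gives 1 value per gene, so the soluble and membrane-bound forms of this receptor were not separated.

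The TNF receptors differed in level from each other. Tnfrsf1a (GeneID 21937, chromosome 6, 125349723 to 125362483, plus strand) was counted at 159.7, 187, 162, 195.5, 194.8 and 179 CPM. No culture stood apart, the highest being 1.22 times the lowest, and the mean was 179.7 ± 15.8 CPM, or 83.4 ± 7.33 CPM per kb (SD, n = 6). Tnfrsf1b (GeneID 21938, chromosome 4, 145212368 to 145246870, minus strand) was counted at 26.1, 30.9, 37.7, 47.9, 35.9 and 38.9 CPM. It was lowest in replicate 1 and highest in replicate 4, with a mean of 36.2 ± 7.44 CPM, or 7.38 ± 1.51 CPM per kb (SD, n = 6).

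**Figure D1:**
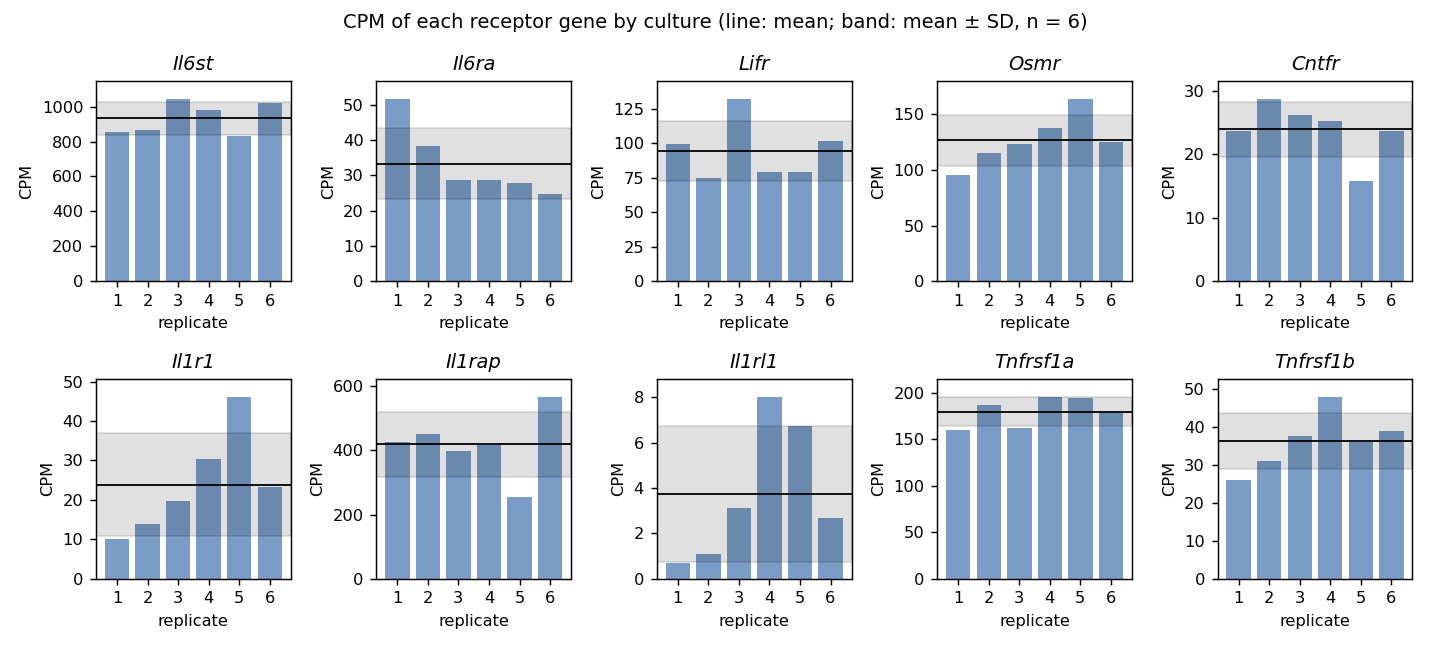
Bars give the CPM of each receptor gene in each of the 6 replicate cultures; the line is the mean and the grey band the mean ± SD (n = 6), and each panel has its own axis from 0. Il6st and Tnfrsf1a are nearly level across cultures, Il1r1 and Il1rl1 are high in replicates 4 and 5 and low in replicate 1, and Il1rap and Cntfr are lowest in replicate 5.

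Ordered by mean CPM per kb, the members ran Il6st, Tnfrsf1a, Il1rap, Osmr, Il6ra, Lifr, Tnfrsf1b, Il1r1, Cntfr and Il1rl1. Il6st was first, Tnfrsf1a second and Il1r1, Cntfr and Il1rl1 were the last 3, in this order, in each of the 6 cultures. Differences between neighbours in this order are given as descriptions, since the same values set the order. Il6st lay above Tnfrsf1a by 1.04 ± 0.212 and Tnfrsf1a above Il1rap by 1.202 ± 0.436 in log2(CPM per kb + 0.1) (SD, n = 6), with ranges that did not overlap; per kb of the longest transcript the mean of Il1rap was above that of Tnfrsf1a. Neighbours that did not keep their order in all cultures were Il1rap and Osmr (0.76 ± 0.576, 5 of 6 cultures), Il6ra and Lifr (0.14 ± 0.523, 4 of 6) and Lifr and Tnfrsf1b (0.25 ± 0.437, 5 of 6). In the middle of the order, Il6ra and Lifr, and Lifr and Tnfrsf1b, therefore did not differ beyond their spread at the combined exon length. Per kb of the longest transcript, Il6ra averaged 3.85 ± 1.17, Lifr 9.79 ± 2.24 and Tnfrsf1b 9.49 ± 1.95 CPM (SD, n = 6).

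**Figure D2:**
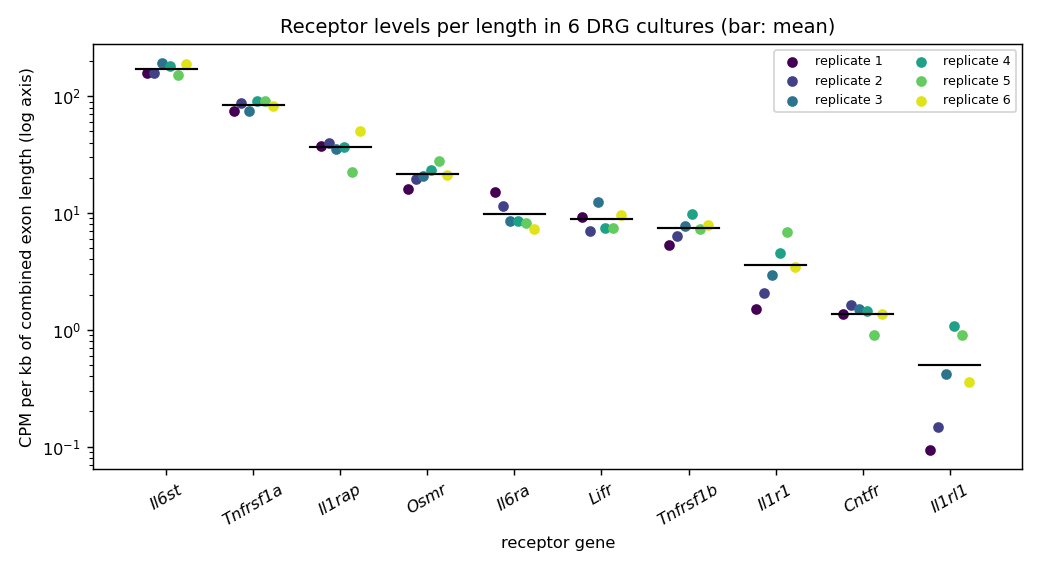
Points show CPM per kb of combined exon length (log axis) for each receptor gene in the 6 cultures, with a bar at the mean. Il6st is highest in every culture at a mean of 171 CPM per kb and Il1rl1 lowest at 0.499 CPM per kb, while Il6ra, Lifr and Tnfrsf1b overlap.

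In all, 10 pairs of receptors were compared within each library. They were partners in a complex, chains that join the same partner in different complexes, or both receptors of TNF. All 10 differences had the same direction in all 6 cultures, which gives p = 0.0312 for each by a two-sided exact permutation of signs, the smallest value 6 libraries can reach, and an adjusted p = 0.0312 over the 10 pairs. Il6st exceeded its partners Il6ra by 4.15 ± 0.490, Lifr by 4.28 ± 0.245 and Osmr by 3.00 ± 0.291 in log2(CPM per kb + 0.1) (SD, n = 6). The ratios to Il6ra and Lifr were 17.7 and 19.5. Their order depended on the length: per kb of the longest transcript the log2 differences were 4.81 from Il6ra and 3.47 from Lifr. Lifr was lower than Osmr (difference -1.28 ± 0.463). Tnfrsf1a exceeded Tnfrsf1b by 3.50 ± 0.250, or 11.3-fold. Il1rap exceeded Il1r1 by 3.47 ± 1.02, or 11.1-fold, and Il1rl1 by 6.21 ± 1.27. The excess of Il1rap over Il1r1 was 4.56 in replicate 1 and 1.69 in replicate 5, and that over Il1rl1 was 7.61 and 4.49. Il1r1 exceeded Il1rl1 by 2.74 ± 0.434 (SD, n = 6). Differences from Il1rl1 depended on the pseudocount, since Il1rl1 was at 0.0933 CPM per kb in replicate 1. With pseudocounts of 1 and 0.01, that of Il1r1 was 1.54 and 3.10, and that of Il1rap 4.67 and 6.61.

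**Figure D3:**
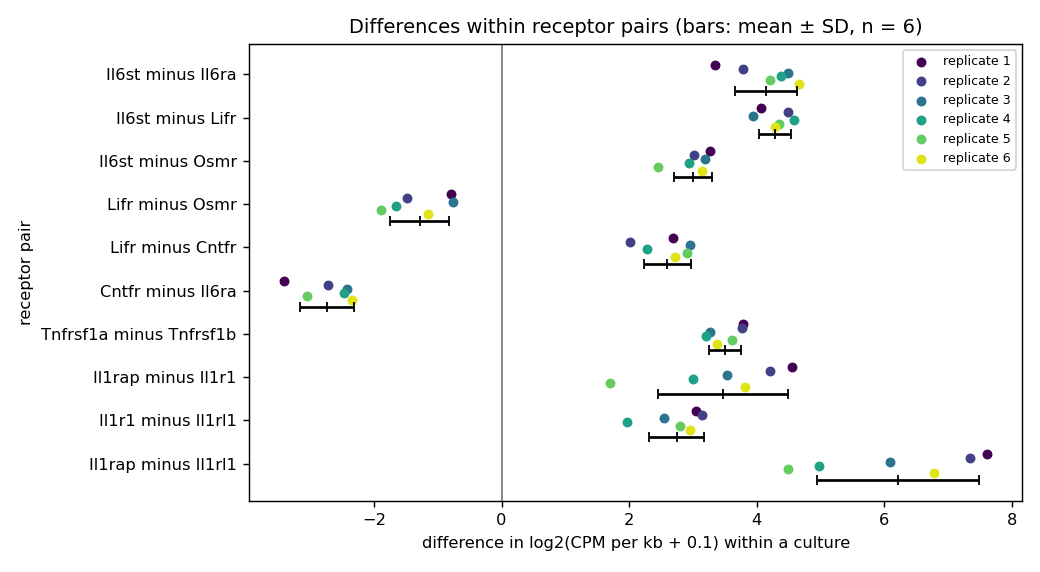
Each point is the difference in log2(CPM per kb of combined exon length + 0.1) between both genes of a receptor pair within 1 culture; bars give the mean ± SD (n = 6). No pair crosses 0, and the differences of Il1rap from Il1r1 and from Il1rl1 spread most, with replicate 5 at their low end.

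The places of several members, Cntfr most of all, rested on the length used. With the combined exon length of 17435 bases, Cntfr was lower than Lifr (Lifr minus Cntfr 2.60 ± 0.369) and lower than Il6ra (Cntfr minus Il6ra -2.73 ± 0.416). The longest Cntfr transcript in GENCODE has 1995 bases. Dividing by the longest transcript of each gene put Cntfr at 11.97 ± 2.19 CPM per kb (SD, n = 6), rank 5 of the 10 members, and turned both directions: Cntfr exceeded Il6ra by 1.63 (exact sign-flip permutation, adjusted p = 0.0347) and Lifr minus Cntfr was -0.29 (adjusted p = 0.125). Il6ra then ranked 9, at 3.85 ± 1.17 CPM per kb, but its longest GENCODE transcript of 8639 bases runs past the end of the gene counted here. Il6st ranked 1 and Il1rl1 ranked 10 under both lengths. Il1rap and Tnfrsf1a changed places, with 92.6 ± 22.3 and 83.3 ± 7.33 CPM per kb of longest transcript (SD, n = 6).

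**Figure D4:**
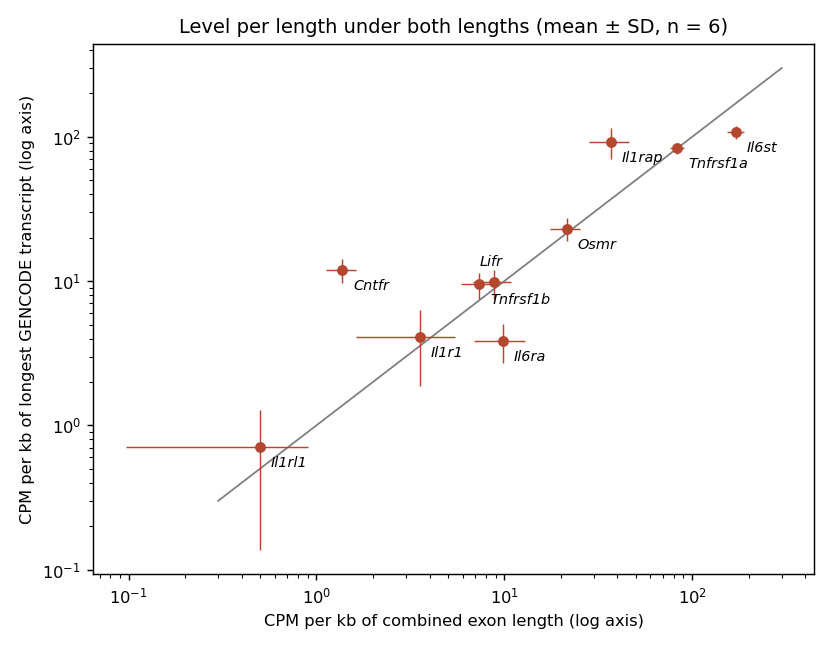
Mean level of each receptor gene per kb of combined exon length (horizontal, log axis) against the level per kb of its longest GENCODE transcript (vertical, log axis), with SD bars (n = 6) and a line of equality. Cntfr, at 1.37 and 11.97 CPM per kb, lies farthest above the line, and Il6ra, at 9.86 and 3.85, farthest below it.

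All 10 members passed the filter on low counts and all 10 varied between cultures beyond counting noise (chi-square test on edgeR's TMM-scaled libraries, Benjamini-Hochberg adjusted over 14998 genes; largest adjusted p = 1.21e-17, for Cntfr). Of all genes tested, 76.3% were called in the same way. The SD of log2(TMM-scaled CPM + 0.5) was 1.12 for Il1rl1 and 0.75 for Il1r1, then 0.40 for Il6ra and 0.39 for Il1rap, and 0.25 to 0.30 for Osmr, Tnfrsf1b, Lifr and Cntfr. It was 0.13 for Tnfrsf1a and for Il6st. With a pseudocount of 5 the SD was 0.48 for Il1rl1 and 0.62 for Il1r1, so the order of these 2 members turned. The median over the members was 0.30, beside 0.16 over all genes tested.

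A single culture set part of this spread for several members. Without replicate 5 the SD of Cntfr was 0.12 in place of 0.30 and that of Il1rap 0.21 in place of 0.39, and without replicate 1 the SD of Il6ra was 0.25 in place of 0.40. A relative spread with counting noise taken out is edgeR's biological coefficient of variation. It was 0.7104 for Il1rl1 and 0.438 for Il1r1, where edgeR's fitted trend at their abundance was 0.294 and 0.199. For Tnfrsf1a it was 0.117 and for Il6st 0.128, below trend values of 0.157 and 0.179. Lying below the trend was not particular to these members. Stat3 also did (0.108 against 0.171), while Socs3 lay above it (0.220 against 0.157). The median over all genes tested was 0.153.

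Members differed in which cultures were high. Il1r1 and Osmr were lowest in replicate 1 and highest in replicate 5, an arrangement found in 12.9% of all genes tested, and Il1rl1, Tnfrsf1b and Tnfrsf1a were lowest in replicate 1 and highest in replicate 4. Il1rap, Il6st and Cntfr were lowest in replicate 5, and Il6ra was highest in replicate 1. Shares of all genes were computed only for the arrangement of Il1r1 and Osmr. The summed fibroblast markers were 3339, 6064, 4432, 7452, 13977 and 4801 CPM in the same order of replicates, and the summed macrophage markers 14.6, 25.2, 101.7, 113, 139.7 and 34.9 CPM. Both lists were lowest in replicate 1 and highest in replicate 5, as were the summed endothelial markers (8.14 and 116 CPM) and mural markers (56.9 and 1067 CPM). The summed glial lineage markers (4162 CPM) and neuron markers (887 CPM) were lowest in replicate 5. Of the single genes, 6 of 6 glial lineage and 4 of 8 neuron markers were lowest there.

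**Figure D5:**
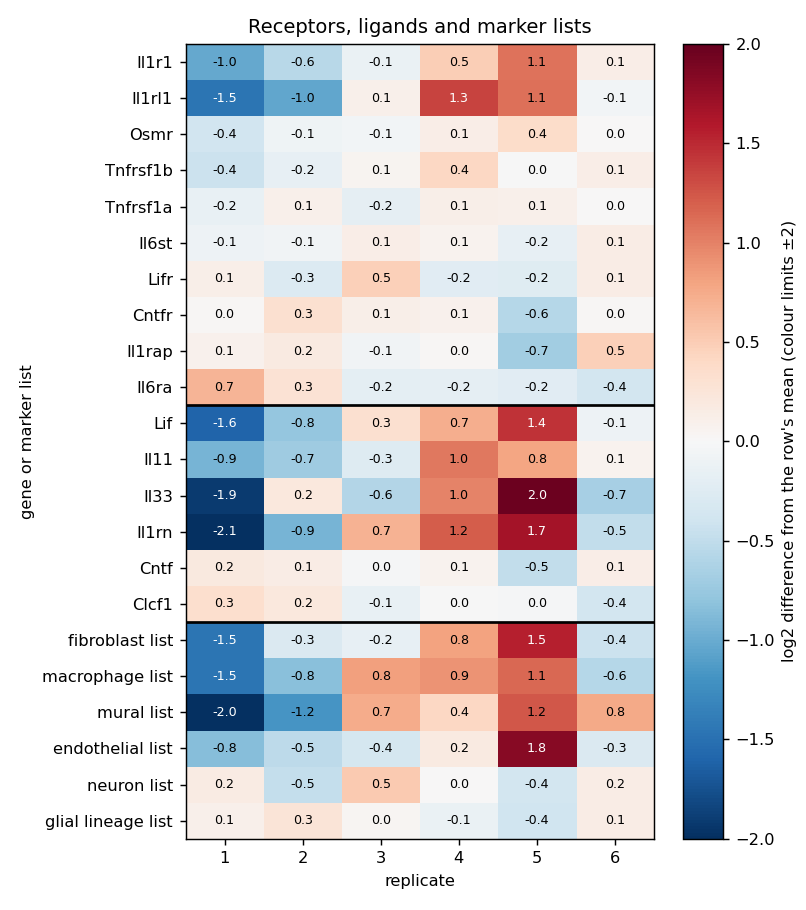
Each row shows a receptor gene (top block), a ligand gene (middle block) or a marker list (bottom block) as the log2 difference of each culture from the row's own mean over 6 cultures, on log2(TMM-scaled CPM + 0.5); lists are means over their genes. Il1r1 and Il1rl1 share with Lif, Il11, Il1rn and the fibroblast and macrophage lists the low values in replicate 1 and high values in replicates 4 and 5, whereas Il1rap and Cntfr are low in replicate 5.

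Relations to marker lists were computed across the 6 cultures for all genes tested, and none passed Benjamini-Hochberg adjustment over all genes (smallest adjusted p over any gene: 0.123 for the fibroblast, 0.0917 for the macrophage, 0.248 for the glial lineage and 0.320 for the neuron list; exact permutation over 720 pairings). Values at an unadjusted exact permutation p under 0.05 are therefore descriptions. Positive relations to the fibroblast list at that level were found for 3 of 10 members, against 11.5% of all genes, and negative ones for 0 of 10, against 8.55%. They were Osmr (Pearson's r = 0.97, exact p = 0.00694; Spearman's rho = 0.83, exact p = 0.0583), Il1r1 (r = 0.94, exact p = 0.0125; rho = 0.83, exact p = 0.0583) and Il1rl1 (r = 0.89, exact p = 0.025; rho = 0.89, exact p = 0.0333). Their adjusted p-values for r lay between 0.133 and 0.189 and those for rho between 0.337 and 0.350. Without replicates 1 and 5, the cultures farthest from the median fibroblast score, r was 0.84, 0.69 and 0.85 for Osmr, Il1r1 and Il1rl1.

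The same 3 members had positive relations to the macrophage list at that level, against 8.3% of all genes, and 0 of 10 had negative ones, against 7.48%. The values were r = 0.92 for Il1rl1 (exact p = 0.00417, adjusted 0.141), 0.85 for Il1r1 (exact p = 0.0389, adjusted 0.289) and 0.83 for Osmr (exact p = 0.0194, adjusted 0.238), with rho = 0.94 for each (exact p = 0.0167, adjusted 0.189). Without replicates 1 and 5, r was 0.81, 0.60 and 0.55 in the same order. As sums and as mean scores, the fibroblast, macrophage, endothelial and mural lists were lowest in replicate 1 and highest in replicate 5. Not every single marker was, for example Cx3cr1 and Myh11. Relations to the fibroblast and macrophage lists therefore cannot be told apart with 6 libraries, and relations to the endothelial and mural lists were not computed. Which cells carried Osmr, Il1r1 and Il1rl1 was not tested.

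For the glial lineage list, 2 of 10 members had a positive relation (8.46% of all genes) and 1 a negative one (7.24%). Cntfr had r = 0.87 (exact p = 0.0306, adjusted 0.283; rho = 0.49, exact p = 0.356, adjusted 0.692), Il1rap r = 0.87 (exact p = 0.0319, adjusted 0.287; rho = 0.89, exact p = 0.0333, adjusted 0.448) and Il1r1 r = -0.82 (exact p = 0.0389, adjusted 0.296; rho = -0.71, exact p = 0.136, adjusted 0.527). Without replicates 2 and 5 the value of Cntfr was -0.64, so its relation rests on those cultures; for Il1rap it was 0.61 and for Il1r1 -0.55. Lifr was the 1 member with a positive relation to the neuron list (5.21% of all genes), and 0 of 10 had a negative one (2.81%). Its r was 0.91 (exact p = 0.00278, adjusted 0.381), its rho 0.94 (exact p = 0.0167, adjusted 0.470), and r without replicates 2 and 5 was 0.95. The neuron list was added to these relations after the values were seen. The labels name no batch of culture or sequencing, so no value within batches could be given.

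Genes with the most similar profile over the 6 cultures were sought among 7774 other protein-coding genes with a mean of at least 20 CPM, by the root mean square difference of centred log2 values. Csgalnact1 and the secreted protein Igfbp7 were among the 3 nearest to Il1r1, at 0.17 each, where Il1r1 itself departed from its mean by 0.68. For Lifr the 3 nearest were Ccp110 (0.08), the neuronal ubiquitin hydrolase Uchl1 (0.08), which is on the neuron list, and Srgap3 (0.09), against 0.27 for Lifr itself. Cntfr was nearest to Arhgef10, Sema4d and the neurotrophin receptor Ntrk2 (0.08 each). Il6ra was nearest to the HGF receptor Met, Eid1 and Kcnk13 (0.05 each), Il1rap to Pik3ap1 (0.06), Prnp and Cadm2 (0.08 each), and Osmr to Map3k20 (0.04), Ikbip and Ndc1 (0.05 each). Tnfrsf1b was nearest to the transcription factor Bhlhe40 (0.06), Camk2n1 (0.09) and Metrnl (0.11), Tnfrsf1a to Tmem214, Rps29 (0.02 each) and Ncln (0.03), and Il6st to Phtf1, Klf9 (0.03 each) and Rrnad1 (0.04). These distances describe 6 cultures and were not tested.

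Of 16 ligand genes of these families, 8 were above 1 CPM in all cultures. Clcf1, a ligand of the IL-6 family, averaged 42.0 ± 6.97 and Cntf 28.3 ± 4.27 CPM per kb (SD, n = 6). Cntf was lowest in replicate 5 (24.03 CPM), as Cntfr was.

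Lif was counted at 7.97, 14.3, 32.4, 42.5, 70.6 and 23.3 CPM, with replicate 5 at 8.86 times replicate 1; replicates 1 and 2 were the lowest and 4 and 5 the highest, as for Il1r1. Il33, the ligand of Il1rl1, had 5.40, 24.6, 14.7, 44.3, 87.1 and 13.5 CPM, and Il1rn, the secreted antagonist of Il1r1, 6.49, 15.5, 51.2, 72.5, 99.6 and 21.5 CPM. All 3 were lowest in replicate 1 and highest in replicate 5. Il11 reached 1.09 to 5.83 CPM and Il18 1.29 to 2.60 CPM. Several other ligand genes had few counts: Tnf had at most 15 counts in any library, Il1b 12, Osm 8, Lta 8 and Il1a 5, while Il6 had at most 46. Il27 had at most 1 count.

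Among 10 other receptors and decoys of these families, 4 were above 1 CPM in all cultures. They were Ltbr, the lymphotoxin beta receptor (30.8 ± 2.89 CPM per kb), Il11ra1, which pairs with Il6st (6.33 ± 0.946), Il1rl2, the IL-36 receptor (3.33 ± 0.644), and Il31ra, which pairs with Osmr (1.02 ± 0.562; SD, n = 6 each). Il31ra was counted at 2.83, 2.46, 7.62, 6.203, 2.05 and 7.75 CPM. Its counts were thus high in replicates 3, 4 and 6 and low in 1, 2 and 5, unlike those of Osmr. The decoy receptor Il1r2 had at most 10 counts in any library, the inhibitory receptor Sigirr 20, and the IL-18 receptor chain Il18r1 at most 3. Il11ra1 counts were fractional in 3 libraries, and near-identical copies of this gene exist in the mouse, so its level is uncertain.

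The signalling genes behind the receptors were all present. All 14 JAK-STAT genes, all 11 genes of IL-1 receptor signalling and all 12 of TNF receptor signalling were above 1 CPM in every culture. Stat3 was at 102 ± 5.83 and Jak1 at 78.1 ± 9.54 CPM per kb, with Ptpn11 at 50.7 ± 2.37 and Grb2 at 39.5 ± 2.22. Irak1 (35.5 ± 1.65), Tollip (33.3 ± 3.20) and Tab2 (32.3 ± 3.57) led the IL-1 receptor genes, and Rbck1 (22.0 ± 1.15) and Cflar (18.7 ± 1.91) led the TNF receptor genes (CPM per kb, SD, n = 6). Variation beyond counting noise was called for 14 of 14, 10 of 11 and 8 of 12 genes tested in the 3 lists, by the same test and against the same background as the members. Their median SDs on the log2 scale were 0.14, 0.14 and 0.12, beside 0.30 for the receptors and 0.16 for all genes tested. The widest spreads in these lists were those of Irak2, Irak3, Tnfaip3 and Birc3, with SDs of 0.94, 0.67, 0.59 and 0.52. Irak2 was counted at 13.5 CPM in replicate 5 against 1.98 in replicate 1, Irak3 at 8.65 against 2.66, and the feedback inhibitor Tnfaip3 at 6.74 against 1.83. Socs3, the feedback inhibitor of Il6st, was counted at 41.3, 48.3, 68.6, 81.7, 50.25 and 66.0 CPM, highest in replicate 4.

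Promoter sequence is shown for Osmr, Il1r1 and Il1rl1, the 3 members with positive relations to both the fibroblast and the macrophage list at an unadjusted p under 0.05; they were chosen after the values were seen. All 10 members matched RefSeq promoter windows (GRCm38.p6), 18 windows in all, each running from 250 bases before an annotated start to 50 after it. For Il1r1 and Il1rl1, which have more than 1 annotated start, the downstream one is shown. Each line runs from base -240 to base +20 of the gene's own strand. The places are chr15:6874294-6874553 (minus strand) for Osmr, chr1:40266346-40266605 (plus) for Il1r1 and chr1:40439389-40439648 (plus) for Il1rl1. Capitals mark matches to the motifs named after the sequences.
Osmr: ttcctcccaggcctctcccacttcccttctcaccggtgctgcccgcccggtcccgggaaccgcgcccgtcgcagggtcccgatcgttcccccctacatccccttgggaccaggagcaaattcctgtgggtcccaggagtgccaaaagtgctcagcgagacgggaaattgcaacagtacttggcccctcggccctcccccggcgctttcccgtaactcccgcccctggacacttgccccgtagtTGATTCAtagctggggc
Il1r1: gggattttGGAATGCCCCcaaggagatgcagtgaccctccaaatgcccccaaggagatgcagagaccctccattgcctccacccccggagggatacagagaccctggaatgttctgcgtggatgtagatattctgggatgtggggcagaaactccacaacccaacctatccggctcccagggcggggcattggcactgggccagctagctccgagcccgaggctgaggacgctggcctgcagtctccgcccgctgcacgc
Il1rl1: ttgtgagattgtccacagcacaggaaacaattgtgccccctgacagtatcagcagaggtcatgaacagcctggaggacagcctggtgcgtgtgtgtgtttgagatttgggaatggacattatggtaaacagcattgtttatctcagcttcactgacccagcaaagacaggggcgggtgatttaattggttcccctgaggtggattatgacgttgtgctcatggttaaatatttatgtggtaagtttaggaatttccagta

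Both strands were searched for the STAT element written TTCNNNGAA, the AP-1 motif written TGANTCA, a 10-letter NF-kB motif and the TATA box written TATAAA. The AP-1 letters were found in 1 member, at base +4 of Osmr, and in 7.81% of 32851 promoter windows of this length. The NF-kB letters were found in 1 member, at base -232 of the downstream Il1r1 start, and in 5.56% of windows. STAT letters occurred in the windows of Tnfrsf1a and Tnfrsf1b (8.3% of windows) and the TATA letters in none of the members' windows (13.6% of windows). The shown windows differed in base composition: with all 300 bases counted, Osmr had 66.0% G and C and 22 CpG dinucleotides, Il1r1 63.3% and 14, and Il1rl1 44.7% and 3, beside medians of 52.7% and 7 over all windows. The upstream windows, which are not shown, had 49.3% and 5 for Il1r1 and 38.7% and 1 for Il1rl1. Which start these cultures used was not tested. The motif matches describe letters and are no evidence of binding.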

How the data were processed

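RNA was sequenced from 6 cultures of 1 group; the labels' protocols give RNA integrity of at least 8.7, 500 ng of RNA and stranded poly-A libraries. The deposited values are estimated counts per gene, which the authors left unscaled per the file headers, with fractional values in 13.4% to 14.7% of cells per library; per the submitters' processing notes, cutadapt 2.5, STAR 2.7.2b and featureCounts 1.6.4 were used on GRCm38.p6. Strand setting and handling of shared reads are not given in the sources used here. All 45703 gene identifiers matched RefSeq; the combined exon length is the authors' deposited column. The count table held 0 other columns of per-sample values.

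CPM used each library's total of 20070639 to 22968642 counts. Counts were rounded for edgeR 4.0.16 (filterByExpr, TMM, dispersions) and DESeq2 1.42.0 (size factors as an alternative) in R 4.3.3. Tests were the chi-square test of counts against scaled library sizes over 14998 genes, exact sign-flip tests of pairs (pseudocount 0.1), and exact permutation of correlations over all genes, with scipy 1.17.1; the code was tested on simulated data. The chi-square p-values measure departure from counting noise. The sign-flip p-values do not measure the spread between cultures where all differences of a pair have the same direction, since that alone sets them. The correlation p-values rest on how values pair up across these samples. No pair of libraries agreed within sampling noise (lowest median chi-square 2.01, against 0.455 for noise). Genes named are the members, fixed pathway lists and the 3 nearest profiles of members above 5 CPM. Members and lists were chosen with earlier results of these data known. Some genes that these rules name are not reported here.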

Additional observations from a re-analysis of the deposited data

How the results depend on the processing

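Of the alternative values for the pair differences and for the counts of members, 126 met a rule for unchanged results and 4 did not. Counts had to stay within 1.5 times, and pair differences with another pseudocount or length had to keep their direction and side of the threshold. Pair differences with 1 culture left out had to keep their direction and move by less than the SD. These could not fail, since all differences of a pair had the same direction, so they are no sign of stability. With the longest transcript as length, Lifr minus Cntfr turned to -0.29 and Cntfr minus Il6ra to 1.63 (adjusted p = 0.125 and 0.0347, exact permutation of signs). The lengths then change from 17435 to 1995 bases for Cntfr and from 3377 to 8639 for Il6ra. The other 8 pairs kept their direction, but sizes moved, as for Il1rap minus Il1r1 from 3.47 to 4.59. With Spearman's rho in place of Pearson's r, 1 member in place of 3 was related to the fibroblast list and 1 in place of 3 to the glial lineage list at an unadjusted p under 0.05. All 10 members varied beyond counting noise under DESeq2 size factors, library totals alone, no filter on low counts, each left-out replicate and, chosen after seeing the data, without replicates 1 and 5. The count of members detected in all cultures was 9 or 10 in each alternative run. These runs used lower limits (0.5 CPM, 10 counts), 3 cultures in place of all or left-out replicates. None was stricter than the main rule, so the count could not fall below 9. The members' alternative means moved by less than the SD between replicates. For left-out replicates this was fixed in advance, since leaving out a single culture cannot move a mean by a full SD. Of their SDs, those of Cntfr, Il1rap and Il6ra moved by over 1.5 times without a single culture, as given with the results, and that of Il1rl1 moved from 1.12 to 0.48 with a pseudocount of 5. Il1r1 minus Il1rl1 was 1.54 and Il1rap minus Il1rl1 was 4.67 with a pseudocount of 1. With 5 libraries the sign-flip test cannot pass the threshold, so those differences were taken as values. Their direction was fixed in advance by that of the full set, in which no culture went the other way. No paired analysis was possible because the series holds 1 group. Il1rl1, with 16 and 24 counts in replicates 1 and 2, is the member that depth limits most.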

Other observations

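The enzymes that release receptors of these families from the cell surface were among the abundant genes of the set. Adam10 averaged 223 ± 37.8 CPM per kb and Adam17, the main sheddase of TNF receptors, 33.6 ± 5.19 CPM per kb (SD, n = 6). Rhbdf1 and Rhbdf2, the iRhom partners that bring Adam17 to the surface, averaged 59.3 ± 6.68 and 10.9 ± 2.47 CPM per kb. All 4 were lowest in replicate 5, as were 6 of 6 glial lineage markers. The share of all genes lowest in that culture was not computed. Adam10 was counted at 1318, 1228, 949, 944, 863 and 1025 CPM and Adam17 at 189, 172, 146, 145, 124 and 140.5 CPM. Both were highest in replicate 1, as Il6ra was, but a relation of these genes to Il6ra was not tested.

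Dixon's ratio, the distance of an end value from the one beside it as a share of the whole range, was taken for each member. The highest ratio was 0.610 for the low level of Cntfr in replicate 5, and the next was 0.523 for the high level of Lifr in replicate 3. None of the 10 members exceeded Dixon's critical value for 6 samples.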
